A study of Homo sapiens with 16 samples.

Results

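Human cardiomyocytes kept in their standard medium were compared at both ends of the culture period, with 4 libraries of Day 30 set against 4 libraries of Day 16. The cells were hPSC-CMs, cardiomyocytes differentiated from human pluripotent stem cells, here of the induced pluripotent line WTC11, and both groups grew in RPMI/B27, a rich synthetic medium with the B27 supplement in which such cells are usually kept. The Day 16 group was sampled before the media were split, and the Day 30 group had stayed in the same medium, so that the groups differ in time in culture and not in medium. The genes were chosen by a single limit, a mean of at least 1 over the 8 libraries in the deposited TPM (transcript levels per length, with a fixed total in each library), which 16414 of the 31047 genes above 0 in any of the series' 16 libraries met. The series also holds 4 libraries each of cells moved at Day 16 to RPMI_glcM/B27, the same medium with glucose lowered to 5 mM, and to HPLM/B27, a medium with the solutes of human plasma, both sampled at Day 30. All libraries were wells of 1 differentiation of 1 cell line, started from a frozen bank of cardiac progenitors, so the errors and p-values below measure the spread between wells. For the tests of single genes that spread was estimated over all 16 libraries, those of the other media included. No sort was described, and in such bulk RNA fewer cells of a type cannot be told apart from less RNA per cell.

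Cardiomyocytes made in culture resemble those of the embryo. In the developing human heart the sarcomere, the contractile unit, exchanges many of its early protein forms for later ones, the myosin heavy chain MYH6 for MYH7 in the ventricle and the troponin I form TNNI1 for TNNI3. The Z-disc that anchors the thin filaments and the sarcoplasmic reticulum that stores calcium are built up, cell division stops, and the embryonic matrix and growth signals are withdrawn.

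The libraries held 9801471 to 11269293 reads on genes at Day 16 and 9655945 to 16183695 at Day 30, as recovered from the steps between the lowest TPM values, and 1 read on a gene of 1000 bases was worth 0.139 to 0.275 TPM. The mitochondrial ribosomal RNA RNR2 took 41.0% to 48.1% of all TPM. The small nuclear RNA RN7SK took 8.76% to 10.4% at Day 16 and 12.6% to 13.8% at Day 30, and what such RNAs take of the total is missing from every other gene. Levels are therefore given as rescaled TPM, the deposited TPM divided by a median-of-ratios factor per library, which centred the log2 fold changes of all genes on a median of 0.00, against −0.28 for the TPM as deposited. RNR1, the smaller mitochondrial ribosomal RNA, ran from 49.5 to 3793 TPM at Day 16 and from 619 to 29276 TPM at Day 30. Its part in the results was not tested beyond a fit that held it as a covariate. Replicate 3 of Day 30 stood farthest from its group, with an SD of 0.272 over 8939 genes on the log2 scale, and replicate 2 of Day 16 came next with 0.228, against 0.114 to 0.187 in the other 6 libraries. The cardiomyocyte label held in every library, since all 11 of the markers checked were above 1 TPM and summed to 11871 to 15459.7 rescaled TPM at Day 16 and 14577 to 24029 at Day 30.

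Between Day 16 and Day 30, 2862 of 16414 genes changed at an adjusted p under 0.05 (limma on log2(rescaled TPM + 1), Benjamini-Hochberg), 17.4% of those tested. Of these, 1403 (8.55%) rose and 1459 (8.89%) fell. A change of at least 2-fold on that scale was carried by 233 of the genes that rose and by 152 of those that fell, and 2360 of the called genes had no overlap between the groups. Among all genes tested 3158 (19.2%) had no overlap, and genes called for a small p are bound to lack it more often. The even division between rises and falls depended on the scaling. On the TPM as deposited, 333 genes rose and 2943 fell, and the median of all genes was −0.28. The counts of lists given below for that scale share this shift. With the most abundant RNAs left out before rescaling, which moved the median of all genes to −0.08, 875 rose and 2031 fell. A smaller set of 1003 genes, 279 higher and 724 lower at Day 30, was called in the same direction under 8 alternative fits and with each library left out in turn. The plot of fold change against level shows where the named genes lie among the rest.

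**Figure D1:**
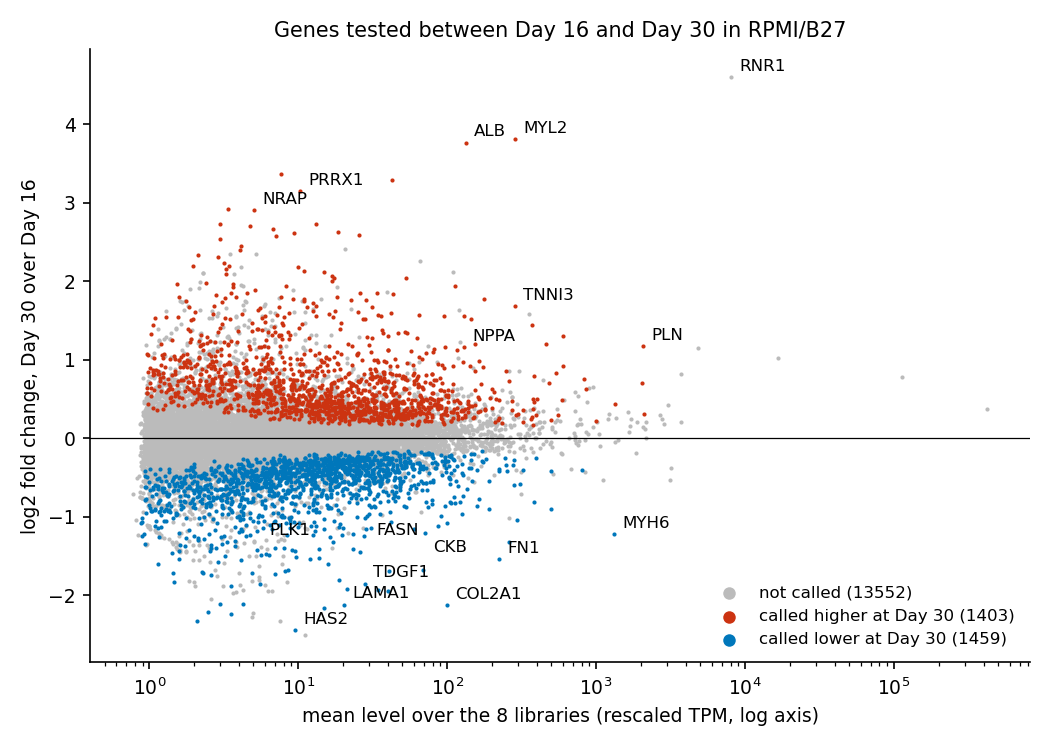
Each point is 1 of the 16414 genes tested, with its mean level over the 8 libraries in rescaled TPM on a log axis and its log2 fold change from Day 16 to Day 30 on the other axis; the 1403 genes called higher and the 1459 called lower at an adjusted p under 0.05 are coloured and a few named genes are labelled. Among the named genes MYL2 lies highest with a log2 fold change of 3.81 and HAS2 lowest with −2.45, and RNR1, not called, stands above all at 4.60.

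Among called genes of at least 5 rescaled TPM whose groups did not overlap, the log2 fold change on the log2(rescaled TPM + 1) scale was largest for MYL2, the ventricular regulatory myosin light chain. It measured 37.8, 28.5, 40.5 and 43.0 rescaled TPM in the 4 libraries of Day 16 and 509.9, 459, 577 and 602 in those of Day 30. Each Day 30 library was more than 10 times as high as any Day 16 library. The fold was 14.3, and the log2 fold change, which on this scale understates changes of low genes, was 3.81 ± 0.14 (SE; limma, adjusted p = 6.76e-10). NRAP, a protein of the growing myofibril ends at the intercalated disc, went from 0.445, 0.340, 0.628 and 0.313 to 9.42, 8.99, 11.3 and 9.14 rescaled TPM (log2 fold change 2.90 ± 0.11, limma, adjusted p = 7.81e-10). It was below 1 rescaled TPM in each Day 16 library. NRAP thus met the limit of a mean of 1 TPM only through Day 30, and its direction is in part set by that limit. The 10 largest rises also held HOPX, a homeodomain protein that marks maturing cardiomyocytes (3.28 ± 0.754 to 18.5 ± 6.11 rescaled TPM, mean ± SD, n = 4), and BHLHE40, a transcriptional repressor of the circadian system (5.43 ± 3.46 to 24.4 ± 5.95).

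The other large rises were not of contractile genes. PRRX1, a homeobox gene of mesenchymal and stromal cells, rose from 1.04, 1.52, 1.34 and 1.199 to 20.9, 19.8, 18.3 and 17.6 rescaled TPM. FGF5, a fibroblast growth factor, rose from 1.15 ± 0.510 to 12.4 ± 1.75, COL21A1, a fibril-associated collagen, from 6.49 ± 0.353 to 44.3 ± 4.45, and SERPINI1, the secreted protease inhibitor neuroserpin, from 4.34 ± 1.09 to 32.4 ± 9.92. MGLL, the lipase that splits monoacylglycerols, rose from 1.34 ± 0.726 to 12.7 ± 2.74. ALB, serum albumin, which also stands among the hepatic markers described further on, completed the 10 with a log2 fold change of 3.76. All 10 of these rises and the 10 largest falls kept their call under 8 alternative fits and with each library left out in turn.

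Falls were led by HAS2, the enzyme that makes hyaluronan, the sugar polymer of the embryonic cardiac jelly. HAS2 measured 19.6, 11.2, 19.3 and 17.3 rescaled TPM at Day 16 and 1.68, 2.41, 2.23 and 2.58 at Day 30 (log2 fold change −2.45 ± 0.18, limma, adjusted p = 3.94e-07). COL2A1, the fibrillar collagen of cartilage and of the embryonic heart valves, went from 157, 186, 154 and 153 to 39.0, 31.8, 36.0 and 39.1 (4.45-fold lower). In both genes the groups did not overlap, which was a condition of the choice of these genes. LAMA1, the early laminin alpha chain of basement membranes, fell from 33.4 ± 5.39 to 6.90 ± 1.08, and FREM2, another basement membrane protein, from 64.0 ± 12.8 to 15.6 ± 2.32. GPC3, a heparan sulfate proteoglycan of growing embryonic tissue, fell from 55.0 ± 4.56 to 13.6 ± 1.22. TDGF1, the NODAL coreceptor of early embryonic cells, fell from 44.6 ± 8.30 to 11.6 ± 2.53, and CD24, a surface protein of progenitor and epithelial cells, from 62.7 ± 5.16 to 18.7 ± 1.98. APOB and TTR, which make the other places with IGDCC3, are described with their groups.

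**Figure D2:**
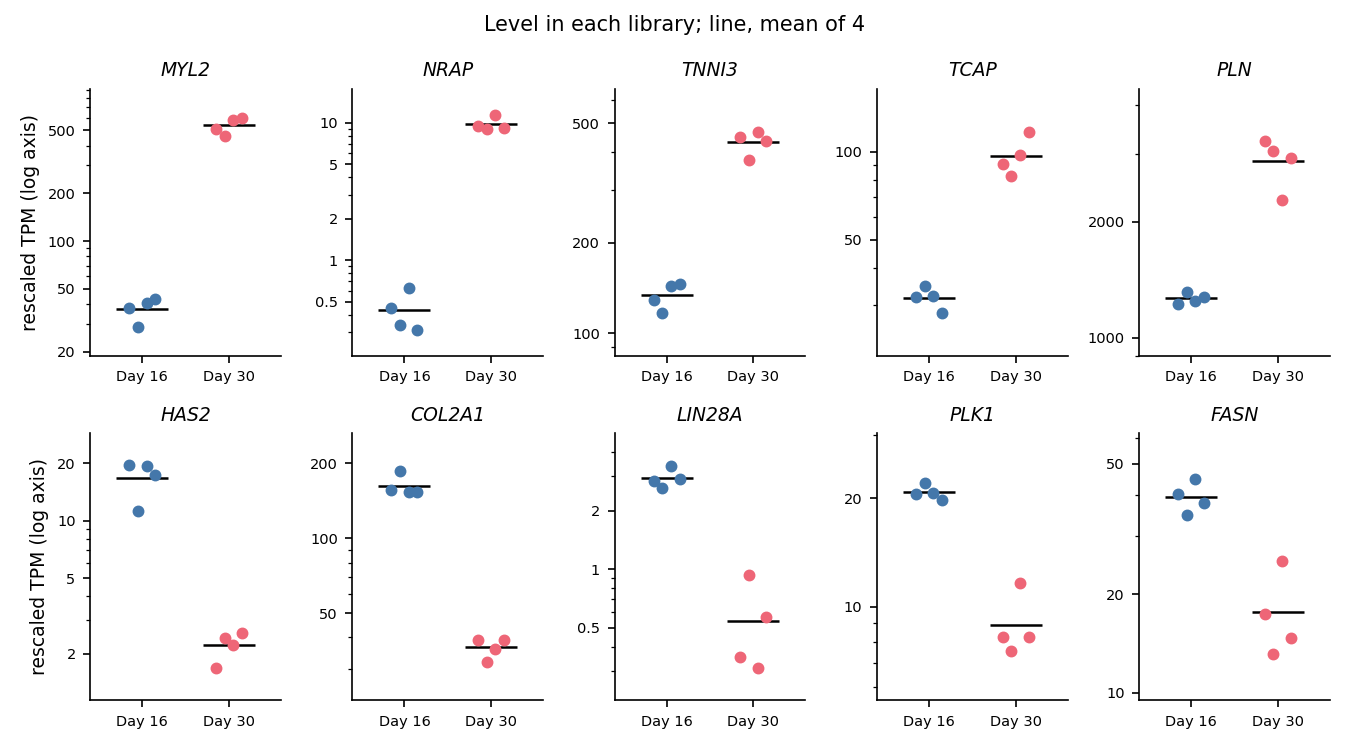
Each panel shows 1 gene, with its rescaled TPM in each of the 4 Day 16 and 4 Day 30 RPMI/B27 libraries as points on a log axis and the group mean as a bar line. MYL2, NRAP, TNNI3, TCAP and PLN lie higher in all Day 30 libraries, and HAS2, COL2A1, LIN28A, PLK1 and FASN lie lower, with no overlap in any of the 10 panels. For MYL2, NRAP, TNNI3, HAS2 and COL2A1 this was a condition of their choice. NRAP met the limit of a mean of 1 TPM only through Day 30, and LIN28A only through Day 16.

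Pairs of paralogs, genes of 1 family, were compared as the share of the first-named member within a library, a value that no scaling between libraries can move. In most pairs, such as those of the sarcomere, the first-named member is the form known from later heart or muscle. Of 24 pairs, 12 had no overlap between the groups, 8 with a higher and 4 with a lower share of the first-named member at Day 30. By comparison 19.2% of all genes tested did not overlap in level. With 4 libraries against 4, the two-sided exact permutation test gave p = 0.0286 for each of the 12, the smallest it can give, and none was adjusted over the pairs. MYH7, the slow heavy chain, held 43.0, 54.1, 43.8 and 43.6 percent of the MYH7 and MYH6 transcripts at Day 16 and 80.0, 80.0, 64.9 and 79.1 percent at Day 30. Replicate 3 was the lowest of the Day 30 group by a wide margin and still stood above all Day 16 libraries. The mean moved from 46.1 ± 5.33% to 76.0 ± 7.40%. Both members moved, with MYH6 falling from 1815 ± 284 to 839 ± 432 rescaled TPM (log2 fold change −1.23, with replicate 3 of Day 30 within the Day 16 range) and MYH7 rising from 1543 ± 137 to 2532 ± 467 (log2 fold change 0.70).

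In the regulatory light chains, MYL2 held 1.11, 1.02, 1.11 and 1.05 percent against MYL7, the atrial form, at Day 16 and 12.5, 12.7, 10.9 and 11.8 percent at Day 30. The atrial form was still the larger by far in every library, at 3985 ± 744 rescaled TPM at Day 30 after 3441 ± 537 at Day 16. TNNI3, the cardiac troponin I of the later heart, held 25.5, 24.9, 27.6 and 28.8 percent against TNNI1 at Day 16 and 43.7, 39.0, 42.7 and 42.0 percent at Day 30. Neither group came near the other. TNNI3 itself measured 129, 117, 144 and 146 rescaled TPM at Day 16 and 451, 377, 467 and 436 at Day 30 (log2 fold change 1.68 ± 0.10, limma, adjusted p = 5.82e-08). TNNI1 rose as well, from 368 ± 12.4 to 600.2 ± 19.1 (log2 fold change 0.70), so the share moved through the larger rise of the later form. ACTA1, the skeletal actin, held 2.42 ± 0.643% against the cardiac actin ACTC1 at Day 16 and 5.78 ± 2.09% at Day 30.

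The essential light chains went against this order. MYL3, the ventricular form, held 68.0, 68.2, 67.8 and 66.8 percent against the atrial and fetal form MYL4 at Day 16 and 55.7, 52.9, 61.8 and 52.0 percent at Day 30. All Day 30 libraries were below all Day 16 libraries. The cardiac troponin T TNNT2 gave up a sliver of its share to TNNT1, the slow skeletal form, which rose from 5.02 ± 1.62 to 20.3 ± 10.1 rescaled TPM against 4874 ± 2826 of TNNT2. Outside the sarcomere, GJA5, a gap junction protein that in the ventricle is the earlier form, held 10.6 ± 0.955% against GJA1 at Day 16 and 3.87 ± 0.640% at Day 30, and JPH2, which ties the reticulum to the surface membrane, held 58.6 ± 1.31% against JPH1 and then 48.7 ± 2.69%. CASQ2, the calcium store protein of the cardiac reticulum, gained on its skeletal form CASQ1, from 34.6 ± 1.15% to 42.8 ± 3.70%.

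**Figure D3:**
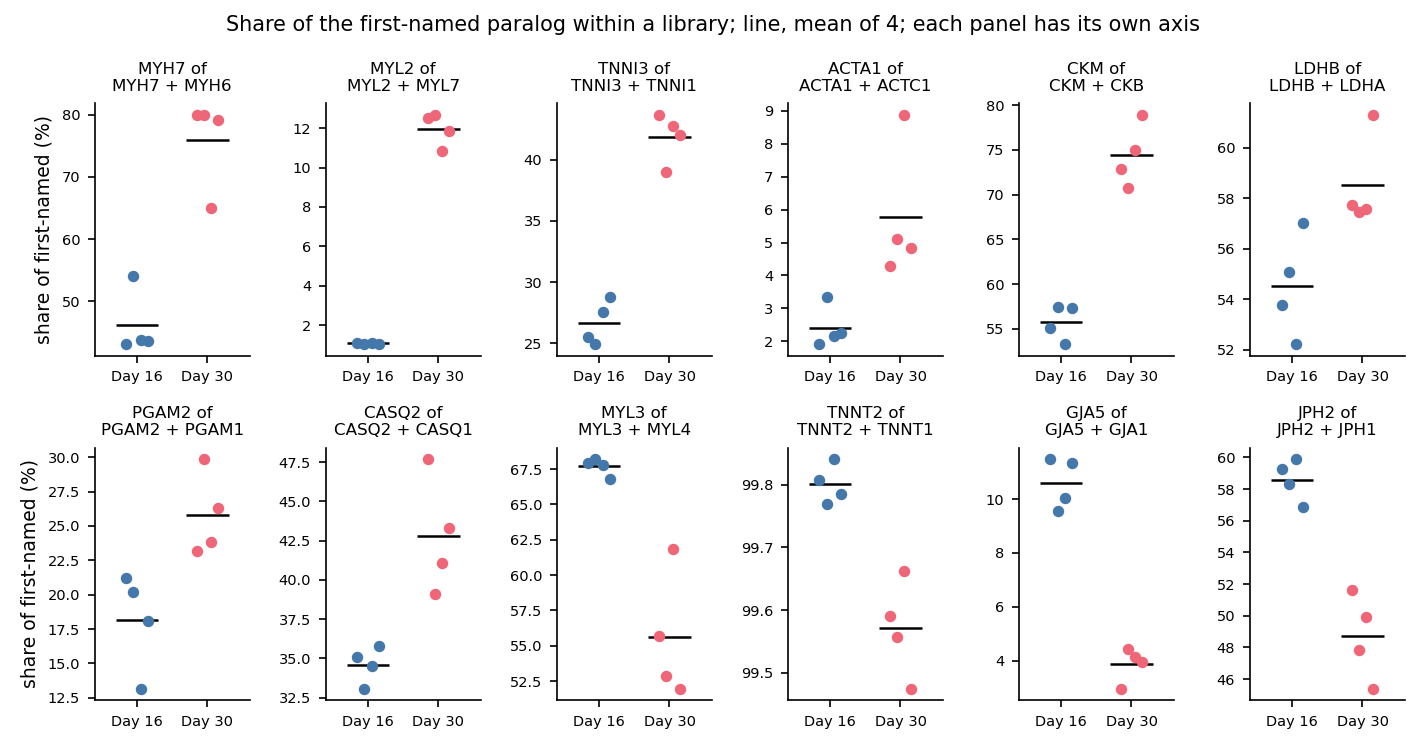
Share in percent of the first-named member in each of the 12 paralog pairs whose groups did not overlap, with 4 Day 16 and 4 Day 30 RPMI/B27 libraries as points and group means as bar lines. The share of MYH7, MYL2, TNNI3, ACTA1, CKM, LDHB, PGAM2 and CASQ2 lies higher at Day 30, and that of MYL3, TNNT2, GJA5 and JPH2 lower.

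Of 13 thick filament genes tested, 5 rose and 2 fell, with a median log2 fold change of 0.21 against 0.00 for all genes. MYH7B, a further myosin heavy chain, rose by 0.89, and MYBPC3, the cardiac myosin-binding protein C, by 0.48 on the log2 scale, whereas the light chain kinase MYLK3 fell by 0.54. TTN, titin, the giant spring of the sarcomere, measured 1095 ± 9.22 rescaled TPM at Day 16 and 1303 ± 123 at Day 30 and was not called. Of 15 thin filament genes, 5 rose and none fell, or 2 fell without replicate 3 of Day 30. The TPM as deposited gave 4 rises and 3 falls. LMOD3, which lengthens actin filaments, rose from 4.20 ± 0.628 to 17.7 ± 7.04. The median of the thick filament list was −0.10, and that of the thin filament list −0.04, on the TPM as deposited, where that of all genes was −0.28. ACTC1 and TNNT2 were not called, and both were set apart in replicate 3 of Day 30. ACTC1 measured 2055, 1607, 6167 and 1876 rescaled TPM in the Day 30 libraries against 3705, 1859, 4188 and 3860.4 at Day 16. Its log2 fold change was −0.39 with all libraries and −0.82 without replicate 3 of Day 30, where it was called lower. MYL3 was likewise called lower without that library, with log2 fold changes of −0.53 and −0.75.

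In the Z-disc list 10 of 23 genes tested rose, none fell and the median was 0.43. Without replicate 2 of Day 16 or replicate 3 of Day 30, 1 fell. TCAP, the titin cap protein, measured 31.9, 34.7, 32.2 and 28.1 rescaled TPM at Day 16 and 90.8, 82.3, 97.5 and 117 at Day 30 (log2 fold change 1.57 ± 0.11, limma, adjusted p = 3.87e-07). The groups did not overlap. FHL2, a LIM protein of the titin spring region, rose from 47.8 ± 15.4 to 143 ± 42.6. Among the others that rose were CSRP3, the muscle LIM protein, with a log2 fold change of 1.31, DES, desmin, the intermediate filament around the Z-disc, with 1.32, XIRP2, an actin-binding repeat protein, with 1.55, and the small heat shock proteins CRYAB with 1.52 and HSPB7 with 0.63. ANKRD1, the ankyrin repeat protein induced by stretch, and ACTN2, the main crosslinker of the Z-disc, had log2 fold changes of 0.43 and 0.19 and were not called. On the TPM as deposited, 7 of the 23 rose and 1 fell, and the median was 0.08.

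Of 29 calcium handling genes, 13 rose and 1 fell, with a median of 0.19. PLN, phospholamban, the brake on the calcium pump of the reticulum, measured 1225, 1312, 1247 and 1277 rescaled TPM at Day 16 and 3231, 3046, 2278 and 2924 at Day 30. All Day 30 libraries were above all of Day 16 (log2 fold change 1.17 ± 0.11, limma, adjusted p = 3.57e-06). The pump itself, ATP2A2, had a log2 fold change of −0.18 (limma, adjusted p = 0.126). CASQ2 rose from 9.24 ± 2.25 to 19.1 ± 1.44, RRAD, a small GTPase that restrains calcium channels, from 32.1 ± 25.1 to 71.7 ± 17.6, and CAMK2B, a calcium-activated kinase, from 1.68 ± 0.316 to 5.07 ± 0.297. The pore of the L-type calcium channel, CACNA1C, rose by 0.30 on the log2 scale, and TMEM38A, a potassium channel of the reticulum, fell by 0.37, a call that held only without replicate 4 of Day 16 or replicate 1 of Day 30. The counts of this list were not stable to scaling, as 4 genes rose and 7 fell on the TPM as deposited, where CACNA1C had a log2 fold change of −0.04. On that scale the median of the list was −0.04, against −0.28 for all genes. The rises numbered 8 without replicate 1 or replicate 3 of Day 16.

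Of 17 surface channel genes 5 rose and 3 fell, with 3 rises without replicate 1, 3 or 4 of Day 16 or replicate 4 of Day 30. With the TPM as deposited none rose and 5 fell. KCNQ1, a repolarizing potassium channel, rose from 2.51 ± 1.33 to 5.16 ± 1.27 rescaled TPM. HCN4, the pacemaker channel, measured 105 ± 12.99 and 97.5 ± 14.1 and was not called. At the intercalated disc, where cardiomyocytes join end to end, 4 of 16 genes rose and 3 fell, and on the TPM as deposited 1 rose and 6 fell. GJA5, the gap junction protein of atrium and conduction system, fell from 6.68 ± 0.632 to 2.24 ± 0.291, and the desmosomal cadherins DSG2 and DSC2 fell by 0.58 and 0.55 on the log2 scale.

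Of 28 cardiac transcription factors, 5 rose and 9 fell, or 6 without replicate 1 or 3 of Day 16 or replicate 2 or 4 of Day 30. MEF2C, an activator of muscle genes in the early heart, measured 59.5, 54.1, 59.6 and 55.8 rescaled TPM at Day 16 and 28.6, 24.0, 30.1 and 24.6 at Day 30 (log2 fold change −1.07 ± 0.08, limma, adjusted p = 6.72e-07). No Day 30 library reached a Day 16 level. TBX3, a repressor of the working myocardial program, fell from 8.14 ± 1.04 to 4.62 ± 1.44, and smaller falls were called for NKX2-5 (−0.32), MYOCD (−0.41) and HAND1 (−0.34 on the log2 scale). HAND2, the factor of second heart field and right ventricle, rose from 121 ± 12.9 to 227 ± 23.5. SHOX2, a homeobox gene of the sinus node, lay between 0 and 0.0497 rescaled TPM in the 4 libraries of Day 16, which is at most 1 read in each, and between 2.68 and 3.83 at Day 30. SHOX2 thus met the limit of a mean of 1 TPM only through Day 30, and its direction is in part set by it. GATA4 and TBX5, core factors of the cardiac program, had log2 fold changes of −0.19 and −0.02 and were not called. NPPA, the atrial natriuretic peptide, rose from 75.0, 72.8, 74.8 and 77.9 to 141, 115, 323 and 155, and PAM, the enzyme that amidates secreted peptides, from 278 ± 4.16 to 484 ± 78.8. NPPB, the B-type peptide, lay at 176, 43.8, 267 and 199.8 and 189, 134, 889 and 196, with replicate 3 far above the rest of Day 30, and was not called.

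Extracellular matrix genes fell more often than they rose, with 18 of 45 lower, 7 higher and a median of −0.24. FN1, fibronectin, the main adhesive protein of embryonic matrix, measured 362, 364, 318 and 291 rescaled TPM at Day 16 and 128, 112, 99.8 and 117 at Day 30 (log2 fold change −1.54 ± 0.10, limma, adjusted p = 2.30e-07). VCAN, versican, the proteoglycan that binds hyaluronan in cardiac jelly, fell from 394 ± 15.0 to 191 ± 16.2, and HAPLN1, the protein that links the pair, by 1.25 on the log2 scale. With HAS2 these genes make, bind and link the hyaluronan of the embryonic matrix. The rises were led by COL21A1 and by COL12A1, another fibril-associated collagen (2.12 ± 0.249 to 7.69 ± 1.31), followed by POSTN, periostin, at 0.82 and LAMA2, the laminin chain of mature muscle basement membrane, at 0.58 on the log2 scale. On the TPM as deposited 21 fell and 2 rose.

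Genes of the WNT, BMP, NOTCH and FGF pathways, which pattern the embryonic heart and keep its progenitors dividing, fell in 26 of 53 cases and rose in 9, with a median of −0.35. Among ligands, WNT2, expressed in early heart, measured 7.17, 2.13, 5.42 and 4.39 rescaled TPM at Day 16 and 0.163, 0.0540, 0.307 and 0.175 at Day 30, RSPO3, which strengthens WNT signals, fell from 33.1 ± 1.61 to 13.7 ± 1.58, and BMP2 and FGF10 fell by 0.84 and 0.81 on the log2 scale. WNT2 met the limit of a mean of 1 TPM only through Day 16, and its direction is in part set by it. Among receptors, FGFR3, FGFR2 and FZD7 had log2 fold changes of −1.25, −1.10 and −1.25, while FZD1 rose by 1.01. Several genes that these pathways switch on fell as well. They are named here after their values were seen, and other targets in the list are not named. DUSP6, a phosphatase induced by FGF signals through ERK, measured 8.66, 4.10, 10.5 and 9.28 at Day 16 and 1.37, 1.61, 2.42 and 1.34 at Day 30 (log2 fold change −1.72 ± 0.23, limma, adjusted p = 1.12e-04). SPRY4 and ETV5, further FGF targets, fell by 1.16 and 1.01, all 4 ID genes, the targets of BMP, were lower by 0.47 (ID3) to 1.01 (ID1), and the WNT targets LEF1 and AXIN2 by 0.67 and 0.51. The calls of ID3 and AXIN2 did not hold in every fit with a library left out. The activity of the pathways was not tested.

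Of the 9 that rose, 4 were of secreted WNT-binding or inhibitor families, and the others were WNT5A, FZD1, FZD2, LGR4 and FGF12. SFRP1, a decoy that binds WNT ligands, measured 65.8, 64.3, 68.1 and 59.9 rescaled TPM at Day 16 and 222, 213, 152 and 185 at Day 30, SFRP2 rose from 0.884 ± 0.0870 to 5.52 ± 0.865, SFRP5 by 1.54 and DKK3, of the Dickkopf family, by 0.37 on the log2 scale. The 3 SFRP genes showed no overlap between groups. SFRP2 met the limit of a mean of 1 TPM only through Day 30, and its direction is in part set by it. On the TPM as deposited 30 genes of the list fell and 5 rose.

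Of 19 genes tested on the insulin-like growth factor axis and its RNA-binding regulators, several of them active in the embryo and shut down after it, 8 fell and 2 rose. LIN28A, which blocks maturation of the let-7 microRNAs, measured 2.85, 2.62, 3.41 and 2.91 rescaled TPM at Day 16 and 0.354, 0.938, 0.311 and 0.570 at Day 30 (log2 fold change −1.37 ± 0.18, limma, adjusted p = 9.16e-05). LIN28A met the limit of a mean of 1 TPM only through Day 16, and its direction is in part set by it. LIN28B, its paralog, fell by 0.88, and the chromatin proteins HMGA1 and HMGA2 by 1.42 and 0.96, as did the messenger RNA-binding proteins IGF2BP1 and IGF2BP3 by 0.66 and 0.61 on the log2 scale. IGDCC3, an immunoglobulin family receptor of the embryo, fell from 11.3 ± 0.818 to 2.72 ± 0.416 rescaled TPM. IGF2, the fetal growth factor itself, went the other way, from 3.49 ± 0.661 to 5.69 ± 0.705 (log2 fold change 0.58), and INSR, the insulin receptor, rose by 0.62 while its docking protein IRS1 fell from 25.9 ± 1.05 to 12.9 ± 0.741. Of 12 imprinted and fetal genes tested, 2 rose and 5 fell, and on the TPM as deposited none rose and 6 fell. PEG10 rose by 0.97 and MEST fell by 1.13 on the log2 scale.

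Of 32 cell cycle genes tested, 10 were lower and none higher, only 4 had a log2 fold change above 0, and the median was −0.50. PLK1, the kinase that drives mitosis, measured 20.5, 22.1, 20.7 and 19.8 rescaled TPM at Day 16 and 8.23, 7.56, 11.7 and 8.24 at Day 30 (log2 fold change −1.15 ± 0.31, limma, adjusted p = 0.019). CDC20, which activates the anaphase-promoting complex, measured 11.7, 12.3, 13.2 and 12.1 and 6.32, 4.38, 5.41 and 5.24 (log2 fold change −1.08, adjusted p = 0.0012). No Day 30 library of either gene reached the lowest of Day 16. The 8 other calls were for FOXM1, the transcription factor of late cell cycle genes (−1.04), BIRC5 (−0.87), the mitotic cyclins CCNB2 (−0.86) and CCNB1 (−0.81), the proliferation marker MKI67 (−0.82), the spindle factors TPX2 (−0.81) and AURKA (−0.64), and the checkpoint kinase BUB1 (−0.59). The calls of PLK1, CDC20, FOXM1 and CCNB1 held with any 1 library left out, and each of the other 6 was lost without at least 1. The number of calls went down to 4 without replicate 2 of Day 30, to 5 without replicate 1 or 3 of Day 16 and to 6 without replicate 1 of Day 30, and 1 gene was higher without replicate 4 of Day 30. It went up to 22 on the TPM as deposited, to 15 without the abundant RNAs and to 16 with limma-voom on recovered reads. Levels at Day 30 were lower but not absent, with CCNB1 at 51.4 ± 3.79 and then 28.9 ± 0.961 rescaled TPM.

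DNA replication genes gave a different count, with none of 32 called in either direction by limma and a median of −0.15. At an unadjusted p under 0.05, 3 of the 32 were lower and 1 was higher, limma-voom on recovered reads called 1 lower and none higher, and the TPM as deposited gave 8 lower and none higher. Without the abundant RNAs 2 were lower, as without replicate 2 of Day 16 or replicate 3 of Day 30, and 1 was lower without replicate 4 of Day 30. PCNA, the sliding clamp, had a log2 fold change of −0.12 ± 0.18, and MCM3, of the replicative helicase, of −0.08 ± 0.13. The difference between the 2 lists was not tested. Among the inhibitors of the cycle, 1 of 14 rose, or 2 without replicate 3 of Day 16 or replicate 2 of Day 30, and 2 fell. This was 21.4% called, beside 17.4% of all genes tested. The one that rose was BTG2, an antiproliferative target of p53 (25.8 ± 2.40 to 45.2 ± 4.52 rescaled TPM), MDM2 and CDKN2B fell by 0.47 and 0.63, and CDKN1A, the p53-induced inhibitor, had a log2 fold change of −0.15 and was not called.

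**Figure D4:**
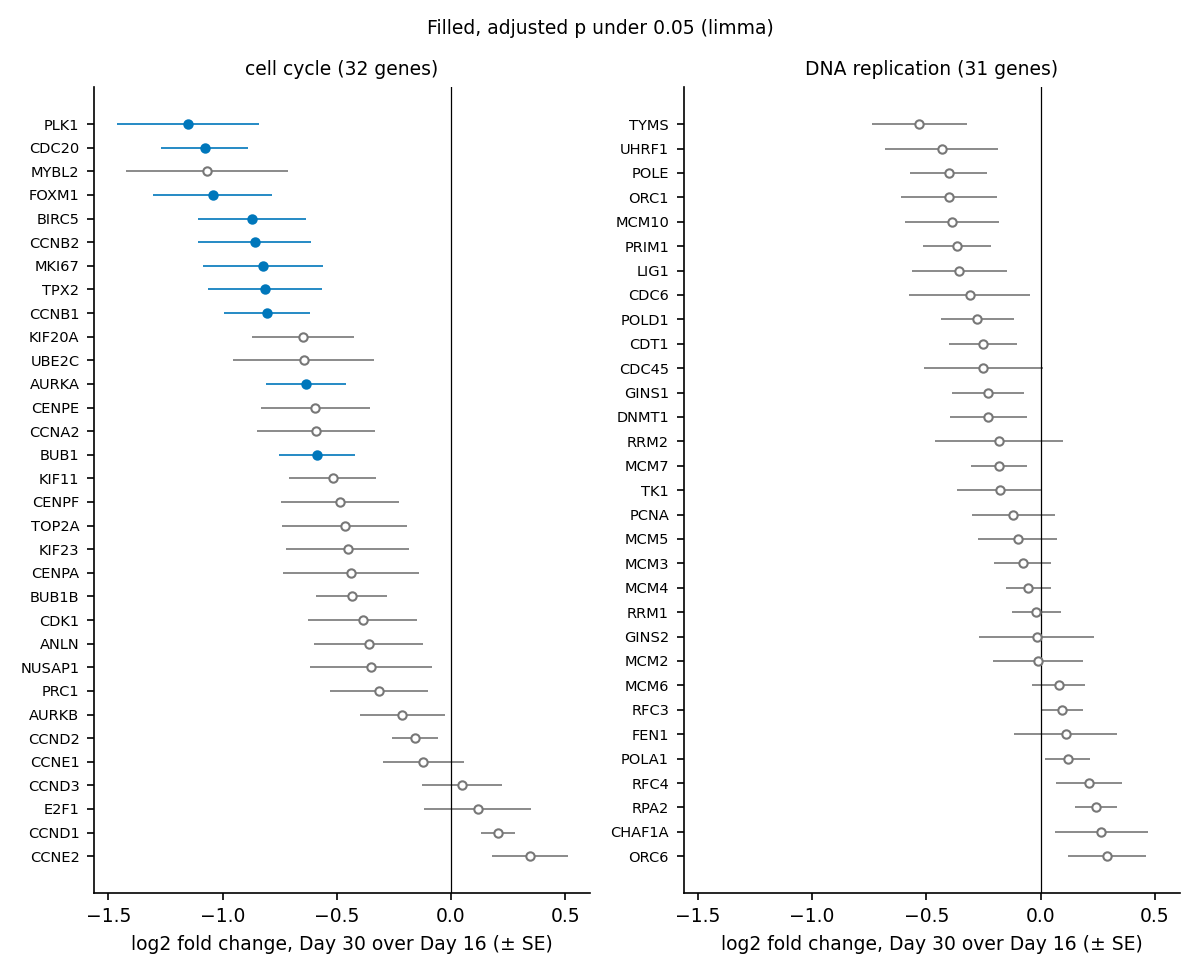
Log2 fold change from Day 16 to Day 30 with its standard error for each of the 32 cell cycle genes in 1 panel and 31 of the 32 DNA replication genes in the other, with genes called by limma at an adjusted p under 0.05 filled. The 10 called cell cycle genes run from −1.15 (PLK1) to −0.59 (BUB1), and none of the DNA replication genes is called.

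Many promoters of these genes carry short elements through which late cell cycle and replication genes are known to be controlled, and a few are shown. The letters TTTGAA or TTTAAA (the cell cycle homology region, CHR, known for genes of mitosis) were sought on both strands in the 250 bases before the RefSeq start (GRCh38.p14). They were present in 75.0% of the 24 cell cycle genes tested that had a promoter in the table, in 10.7% of 28 DNA replication genes, in 16.0% of 11009 genes tested and in 22.1% of 27305 promoters. The box CCAAT was present in 75.0%, 64.3%, 34.7% and 33.0% of the same groups. Letters of the E2F element (TTTCCCGC, TTTGGCGC, TTTCGCGC or TTTGCCGC) were present in 12.5%, 42.9%, 4.27% and 2.79%. Among cell cycle genes the CHR letters stood in 5 of 6 called genes and in 13 of 18 that were not called. These matches are descriptions of sequence, chosen with the results known. BUB1, called and with a promoter in the table, had no CHR letters and is not shown. The 100 bases before the start follow for the 5 called cell cycle genes that had them, with CHR and CCAAT letters in capitals.
CCNB1, chr5:69167050-69167149 (plus strand): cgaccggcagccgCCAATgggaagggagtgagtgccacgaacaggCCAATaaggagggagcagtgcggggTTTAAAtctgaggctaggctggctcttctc
CCNB2, chr15:59105046-59105145 (plus strand): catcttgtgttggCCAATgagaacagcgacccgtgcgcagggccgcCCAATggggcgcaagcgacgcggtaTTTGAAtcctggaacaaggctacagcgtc
PLK1, chr16:23678789-23678888 (plus strand): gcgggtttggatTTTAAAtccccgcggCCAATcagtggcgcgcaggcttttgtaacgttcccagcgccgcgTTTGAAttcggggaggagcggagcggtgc
CDC20, chr1:43358881-43358980 (plus strand): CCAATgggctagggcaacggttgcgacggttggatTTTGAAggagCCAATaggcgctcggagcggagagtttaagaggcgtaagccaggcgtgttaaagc
MKI67, chr10:128126424-128126523 (minus strand): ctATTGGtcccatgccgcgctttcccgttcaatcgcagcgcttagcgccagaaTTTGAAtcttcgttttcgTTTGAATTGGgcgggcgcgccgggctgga

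For comparison, the same stretch of 3 DNA replication genes, none of them called, is given with E2F and CCAAT letters in capitals. RFC3, a subunit of the clamp loader, had a log2 fold change of 0.10, MCM6, of the helicase, of 0.08, and PCNA of −0.12.
PCNA, chr20:5126623-5126722 (minus strand): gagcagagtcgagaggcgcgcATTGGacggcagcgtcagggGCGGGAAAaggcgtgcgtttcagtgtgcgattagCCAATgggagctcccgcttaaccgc
RFC3, chr13:33818049-33818148 (plus strand): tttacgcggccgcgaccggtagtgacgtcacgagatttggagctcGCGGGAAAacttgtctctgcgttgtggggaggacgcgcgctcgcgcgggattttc
MCM6, chr2:135876444-135876543 (minus strand): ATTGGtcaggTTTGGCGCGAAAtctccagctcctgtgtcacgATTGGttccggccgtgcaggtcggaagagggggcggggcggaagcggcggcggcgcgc

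Glycolysis genes fell in 8 of 24 cases and rose in 2, with 4 or 5 falls without replicate 3 of Day 16 or replicate 2 or 4 of Day 30. The median log2 fold change of the list was 0.04, and 13 of the 24 genes lay above 0. The glucose carriers SLC2A3 and SLC2A1 fell from 136 ± 13.9 to 75.9 ± 6.18 and from 43.2 ± 9.96 to 29.3 ± 7.02 rescaled TPM, PFKFB3, which makes the activator of phosphofructokinase, fell by 0.72, and HK1 and HK2, which trap glucose in the cell, by 0.44 and 0.49 on the log2 scale. ENO2 and ALDOC, forms known from nerve tissue and hypoxic cells, rose by 1.12 and 0.75. Of 30 citrate cycle and pyruvate entry genes, 10 fell and 1 rose, MPC1, a subunit of the mitochondrial pyruvate carrier (0.62), or 2 rose without replicate 2 or 3 of Day 30. The falls were small, from 0.21 for FH to 0.60 for PDK1 on the log2 scale. Of 32 fatty acid oxidation genes 2 rose and 3 fell, 15.6% called beside 17.4% of all genes tested. The falls numbered 1 without replicate 1 or 2 of Day 16 or replicate 2 or 4 of Day 30. The rises were those of CD36, the fatty acid carrier (5.07 ± 0.334 to 9.78 ± 1.18 rescaled TPM), and FABP3, the fatty acid-binding protein of heart (156 ± 13.4 to 244 ± 41.2). PPARGC1A, the coactivator that drives mitochondrial genes, was among those that fell (42.5, 44.0, 44.2 and 40.9 at Day 16 and 32.9, 27.7, 36.7 and 31.6 at Day 30). Of nuclear-encoded respiratory genes, 3 of 36 in complex I rose and 1 fell, and 1 of 37 in complexes III to V rose and 5 fell, shares below the 17.4% of all genes. None of either group rose on the TPM as deposited, where 3 fell in complex I and 10 in complexes III to V. In complex I 5 rose without replicate 4 of Day 16, and the fall held only without replicate 3 of Day 30. In complexes III to V 3 fell without replicate 1 or 3 of Day 16 or replicate 4 of Day 30, and the rises numbered 2 and 3 without replicate 1 and 2 of Day 30 and 0 without replicate 1 or 2 of Day 16 or replicate 3 or 4 of Day 30.

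Energy buffering shifted between forms. CKM, the muscle creatine kinase, held 55.1, 57.4, 53.2 and 57.3 percent against CKB, the brain form, at Day 16 and 72.9, 70.8, 75.0 and 78.9 percent at Day 30, without overlap. CKB fell from 99.1 ± 4.48 to 42.6 ± 7.04 rescaled TPM (log2 fold change −1.21, limma, adjusted p = 1.64e-06), while CKM measured 125 ± 9.41 and 125 ± 23.5 (log2 fold change −0.02, adjusted p = 0.937). LDHB, the lactate dehydrogenase of heart, went from 54.5 ± 2.03% to 58.5 ± 1.86% against LDHA, and PGAM2, the muscle phosphoglycerate mutase, from 18.2 ± 3.59% to 25.8 ± 3.03% against PGAM1.

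Of 29 genes of cholesterol and fatty acid synthesis, 11 were lower, none higher, and the median was −0.35. FASN, fatty acid synthase, measured 40.5, 34.8, 44.8 and 37.9 rescaled TPM at Day 16 and 17.4, 13.1, 25.2 and 14.7 at Day 30 (log2 fold change −1.16 ± 0.16, limma, adjusted p = 1.67e-04). SCD, the stearoyl-CoA desaturase, fell from 135 ± 14.2 to 63.5 ± 9.67, and FADS2, ACLY and SQLE, which desaturate fatty acids, supply acetyl-CoA and oxidise squalene on the way to cholesterol, fell by 1.00, 0.79 and 0.78 on the log2 scale. Without replicate 3 of Day 30 the count was 13 lower and 2 higher, without replicate 2 of Day 16 it was 17 lower, and on the TPM as deposited 21 lower and none higher. Among serine and amino acid genes SLC7A5, the leucine carrier, fell by 1.04, PSAT1 and PHGDH of serine synthesis by 0.95 and 0.63, and 7 of 24 genes of the amino acid response fell in all. DDIT4, an inhibitor of mTORC1, rose from 18.1 ± 5.00 to 44.1 ± 6.64.

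Ribosomal protein genes had 14 of 76 higher and none lower, with a median of 0.22. These counts changed with the scaling, since on the TPM as deposited none was higher and 3 were lower. There the median of the list was −0.12, against −0.28 for all genes. The rises fell to 6 without replicate 1 of Day 16 and to 7 without replicate 2 or 3 of Day 16. They fell to 8 without replicate 4 of Day 30, and 1 gene was lower without replicate 3 of Day 30. Among the stress lists, 7 of 18 p53 target genes fell and none rose, with FDXR and SPATA18 lower by 0.66 and 0.64. Of 21 heat shock and unfolded protein genes 3 fell, with HYOU1 and PDIA4, chaperones of the endoplasmic reticulum, lower by 0.61 and 0.66, and 7 fell without replicate 2 of Day 16. None rose, or 1 without replicate 2 of Day 30. Of 18 hypoxia genes 3 rose and 4 fell, led by ADM, adrenomedullin (13.9 ± 2.81 to 32.0 ± 1.90 rescaled TPM), and VEGFA, the vascular growth factor (109.8 ± 18.4 to 199 ± 21.6). Without replicate 3 of Day 30 the rises were 5, and the falls were 1 without replicate 3 of Day 16 and 2 without replicate 1 or 4 of Day 16 or replicate 1 or 2 of Day 30. Immediate early genes gave 4 higher of 16 and none lower, among them JUNB (0.94) and JUND (0.39), the latter a call that held only without replicate 3 of Day 16 or replicate 2 of Day 30. Without replicate 2 of Day 16 1 gene of the list fell, and without replicate 3 of Day 30 2 did. RXRG, a retinoid receptor of heart and muscle, fell from 21.0 ± 0.475 to 6.72 ± 1.35. Among 18 receptors and their targets 3 fell and 1 rose, with 5 rises without replicate 2 of Day 16 and 3 without replicate 3 of Day 30. In either direction 18.4% of the ribosomal, 38.9% of the p53, 14.3% of the heat shock and 38.9% of the hypoxia genes were called. The share was 25.0% for immediate early genes and 22.2% for receptors, beside 17.4% of all genes tested.

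Counts and medians of the main lists are set side by side with the background in the plot of gene groups.

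**Figure D5:**
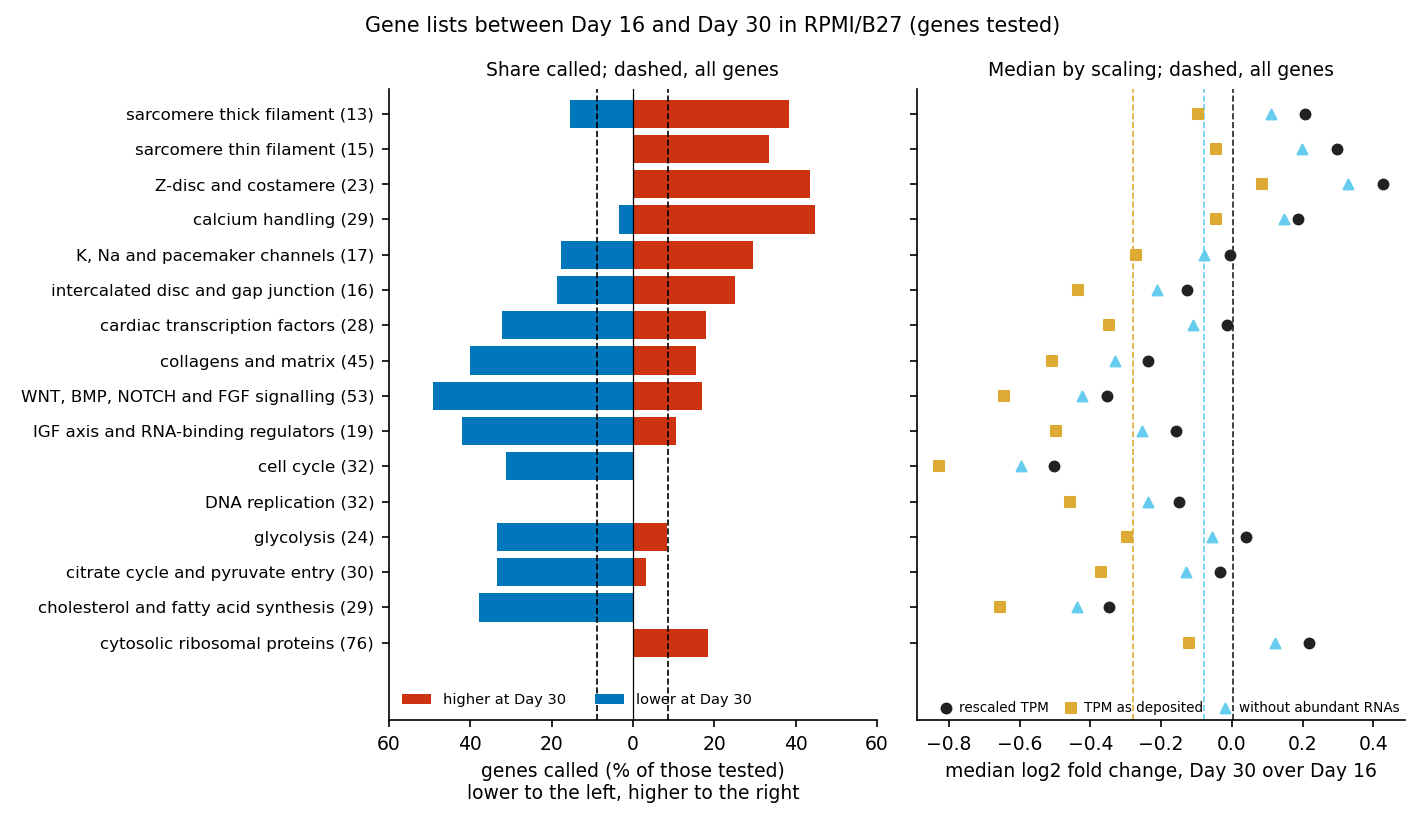
Left, the number of genes called higher and lower from Day 16 to Day 30 in each of 16 gene lists, as a percent of the genes tested in it, with lines at the background of 8.55% higher and 8.89% lower. Right, the median log2 fold change of each list with rescaled TPM, with the TPM as deposited and after leaving out the most abundant RNAs, with a line for the median of all genes under each scaling. The cell cycle, cholesterol and fatty acid, matrix and WNT, BMP, NOTCH and FGF lists lie below 0 under all 3 scalings. So do the DNA replication, IGF axis, intercalated disc, cardiac transcription factor, citrate cycle and channel lists, some of them close to the median of all genes. The Z-disc list lies above 0 under all 3.

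Markers of other cell types were present and moved in part. Hepatic and foregut markers reached a mean of 1 TPM for 13 of 15, and 10 of the 13 fell, or 6 without replicate 1 or 4 of Day 16 or replicate 4 of Day 30. AFP, the fetal serum protein, measured 462, 232, 331 and 492 rescaled TPM at Day 16 and 139, 150.1, 146 and 144 at Day 30. APOB, the protein of lipoprotein particles, fell from 29.7 ± 9.17 to 7.60 ± 2.02, and TTR, transthyretin, from 13.3 ± 2.84 to 3.64 ± 1.59. ALB alone rose, from 26.0, 10.5, 16.3 and 19.8 to 270.2, 266, 231 and 226, and the summed level of the list ran from 373 to 735 at Day 16 and from 465 to 508 at Day 30. Of 10 endothelial markers VWF was at 0 and 8 others stayed below a mean of 1 TPM, while KDR, which cardiac progenitors also express, fell from 39.7 ± 4.24 to 19.96 ± 3.61. Of 9 pluripotency markers POU5F1 was at 0 in all 8 libraries and 3 were tested, LIN28A, TDGF1 and DNMT3B, which all fell, and the sum of the 9 was 41.1 to 59.9 rescaled TPM at Day 16 and 12.4 to 17.5 at Day 30. LIN28A, at 0.311 to 0.938 on Day 30, met the limit of a mean of 1 TPM only through Day 16. The same holds for FOXA1 of the hepatic list, at 0.113 to 0.570 on Day 30. WT1 of the epicardial list, at 0.464 to 0.706 on Day 16, met it only through Day 30. Their directions are in part set by that limit. Fibroblast and stromal markers reached that mean for 7 of 12, with 1 higher (POSTN) and 2 lower (COL1A2 and LUM, of which the first held only without replicate 3 or 4 of Day 16 or replicate 4 of Day 30 and the second only without replicate 1 of Day 16 or replicate 2 of Day 30) and a summed level of 231 to 332 and then 195 to 267. Of the smooth muscle list MYH11 was at 0, ABCC9 and MCAM rose (MCAM kept its call only without replicate 2 or 4 of Day 30), and its sum of 318 to 743 at Day 16 and 329.9 to 1269.5 at Day 30 was widest through ACTA2 and TAGLN, which were high in replicate 3 of Day 30. ACTA2, smooth muscle actin, measured 370.2, 121, 400.2 and 365 and 96.1, 85.3, 569.9 and 81.6, with a log2 fold change of −1.02 that became −1.69 and was called lower without that library. Epicardial markers gave 2 rises, TBX18 (0.92) and WT1 (0.57), and 1 fall, LRRN4 (−1.07), with MSLN at 0, and the rise of WT1 held only without replicate 2 of Day 16 or replicate 3 of Day 30. Of neural markers NEUROD1 was at 0 and TUBB3 was tested and not called, and of blood markers 5 of 10, hemoglobins among them, were at 0 in all 8 libraries. The part of these cells in the falls of matrix, signalling and growth factor axis genes was not tested.

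The Day 30 level in RPMI/B27 is the same base against which the other media of the series are read, so values across media share these 4 libraries with the comparison above and are set side by side only. At Day 30, 11.7% of all genes tested differed from RPMI/B27 in RPMI_glcM/B27 and 12.6% did so in HPLM/B27. Among the 251 genes named by rule, 85 and 105 differed. Of the 20 genes of the largest rises and falls named above, 10 differed from the standard medium in RPMI_glcM/B27 (9 of them lower), and 10 differed in HPLM/B27 (8 of them lower). TNNI3 stood at 134 ± 13.6 rescaled TPM at Day 16 and by Day 30 at 433 ± 39.1 in RPMI/B27, at 967 ± 110.0 in RPMI_glcM/B27 and at 1442 ± 77.2 in HPLM/B27 (adjusted p against RPMI/B27 = 1.32e-05 and 1.61e-07, limma). Both other media had the higher level of this later troponin form, and HPLM/B27 differs from RPMI/B27 in more than glucose. MYL2 reached 537 ± 64.5, 379.7 ± 23.8 and 687 ± 134 in the same order (adjusted p = 0.0382 and 0.138), lower in RPMI_glcM/B27 and not called in HPLM/B27. CKM stood at 125 ± 23.5, 309 ± 11.02 and 366 ± 47.7, and CKB, which had fallen in RPMI/B27, at 42.6 ± 7.04, 86.8 ± 8.63 and 109.9 ± 7.27. TXNIP, a brake on glucose uptake that sugar itself induces, was at 90.9 ± 29.9 at Day 16 and at 138 ± 54.3 at Day 30 in RPMI/B27, not called over time, but at 4.53 ± 1.17 in RPMI_glcM/B27 and 4.83 ± 2.44 in HPLM/B27. PLK1 measured 8.92 ± 1.85, 6.98 ± 1.14 and 9.66 ± 4.95 in the 3 media at Day 30 and LIN28A 0.544 ± 0.287, 1.25 ± 0.493 and 0.747 ± 0.262.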

How the data were processed

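Stranded total RNA libraries of 16 wells of WTC11 hPSC-CMs were sequenced. Per the labels and the submitters' processing notes, reads were aligned to hg38 with STAR 2.5.3a and counted with featureCounts 2.0.3, in R 4.1.3, and the authors deposited 1 table of TPM for 43388 genes. The annotation, the gene lengths and the tool behind the TPM are not given in the sources used here. The series text gives 3 wells per medium where the labels give 4, and all 4 were used. A TPM is relative, so that abundant RNAs lower every other value, and it keeps no read depth by itself. Whole reads were recovered from the ratios between libraries for all 31047 genes above 0.

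The deposited TPM were divided by median-of-ratios factors and tested on the log2(TPM + 1) scale by limma 3.58.1 with a trended prior (R 4.3.3), in 1 fit over 16 libraries and 4 groups, with genes of a mean of at least 1 TPM and Benjamini-Hochberg adjustment at 0.05. Standard errors are those of limma. Where values are given as mean ± SD, n is 4. Paralog shares were set against each other by exact permutation over libraries (two-sided, scipy 1.17.1). The fits were tested on simulated data. Alternatives were the TPM as deposited, rescaling after leaving out 41 abundant RNAs, a pseudocount of 0.1, no filter, a mean of 5 TPM, the 8 libraries alone, the replicate number as a block, RNR1 as a covariate, limma-voom on recovered reads (mean of at least 10) and each library left out. Promoters were taken from RefSeq on GRCh38.p14, and AURKA, TPX2, BIRC5, FOXM1, MCM4, MCM5 and RPA2 were among the genes with no entry.

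The genes, lists, pairs and motifs were chosen with earlier results of these data known. Named were the 10 largest changes and the 10 smallest adjusted p in each direction among genes of at least 5 rescaled TPM without overlap, up to 6 members of each list, the pairs and the markers. Further members are named where their list is described, and were chosen after their values were seen. A gene low on either day could meet the limit of a mean of 1 TPM only through the other day. This was so for NRAP, SHOX2, SFRP2, WNT2 and LIN28A, and their directions are in part set by that limit. Mitochondrially encoded protein genes were not analysed here. A few members of the lists and pairs are counted in the totals and not reported here by name.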

Additional observations from a re-analysis of the deposited data

Results flagged for a closer look

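Of 436 sets of 4 values, the genes and paralog pairs reported in each group, 49 (11.2%) had a library far from the other 3, with a gap to its nearest neighbour, as a part of the whole range, above the critical value of Dixon's test for 4 samples. Chance flags about 1 set in 20. Values are in rescaled TPM, or in percent for the share of the first-named member of a pair, each against the range of the other 3 libraries.

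Replicate 2 of Day 16 held most of these. It was the highest of its group for COL2A1 (186 against 153 to 157), ENO2 (47.1 against 17.5 to 20.03), FHL2 (70.8 against 38.4 to 41.6), LAMA1 (41.4 against 29.5 to 31.4) and MYH7/MYH6 (54.1% against 43.0 to 43.8). It was also highest for PYGM (34.2 against 20.3 to 22.6), RPL3L/RPL3 (0.0270% against 0 in the others), RRAD (69.7 against 17.5 to 22.5), SLC2A4/SLC2A1 (31.8% against 13.4 to 16.5) and TXNIP (136 against 73.0 to 78.0). The same library was the lowest for ACTA2 (121 against 365 to 400.2), ANKRD1 (903 against 2833 to 3226), BIRC5 (11.1 against 16.7 to 17.1), BMP2 (72.8 against 109 to 115), CACNA1C (35.2 against 43.7 to 44.9), FGF12 (7.64 against 11.96 to 12.7), FREM2 (45.03 against 68.6 to 72.4) and JPH1 (18.8 against 28.4 to 28.9). Further low values were those of MCM3 (36.6 against 49.8 to 51.9), MYL4 (1427 against 1841 to 1884), MYLK3 (97.7 against 147 to 151), PCNA (26.7 against 50.0 to 53.8), PTBP1 (12.5 against 16.1 to 16.7), SCD (113 against 138 to 144) and SQLE (24.7 against 44.8 to 47.7). In the other Day 16 libraries, replicate 1 was low in DDIT4 (10.7 against 20.1 to 21.1) and replicate 3 high in DNMT3B (4.50 against 3.87 to 3.90).

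Replicate 3 of Day 30 came next. It was the highest of its group for ACTA1 (600.5 against 86.4 to 95.6), ACTA2 (569.9 against 81.6 to 96.1), ACTC1 (6167 against 1607 to 2055), CACNA1C (63.8 against 46.8 to 49.1), INSR (31.2 against 24.5 to 25.7), JPH1 (54.2 against 32.1 to 35.8) and NPPB (889 against 134 to 196). Further high values were those of NPPB/NPPA (73.4% against 54.0 to 57.2), PLK1 (11.7 against 7.56 to 8.24), RBM20 (98.5 against 71.9 to 76.0), SLC2A1 (39.8 against 25.3 to 26.1), SPRY4 (6.60 against 2.77 to 3.06) and TAGLN (166 against 20.4 to 27.03). It was the lowest for FGF10 (46.8 against 53.01 to 54.0), MYH7/MYH6 (64.9% against 79.1 to 80.0) and SPATA18 (6.63 against 8.64 to 9.05). Of the other Day 30 libraries, replicate 1 was high in GPC3 (15.5 against 12.95 to 13.2), MCM6 (19.4 against 17.8 to 17.9) and TBX3 (6.77 against 3.69 to 4.09), replicate 2 in RPL3L/RPL3 (0.00718% against 0 in the others) and SHOX2 (3.83 against 2.68 to 2.81), and replicate 4 in LDHB/LDHA (61.3% against 57.5 to 57.7).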

How the results depend on the processing

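The total of 2862 genes was 1893 when only the 8 libraries of the comparison entered the fit, 2169 with RNR1 as a covariate, and 2334 to 3395 under the other fits that kept every library. Rises numbered 333 on the TPM as deposited, 875 without the abundant RNAs and 881 with the 8 libraries alone, and falls numbered 2943 on the TPM as deposited. With 1 library left out the total lay between 2114 and 3220, with 1062 to 1561 rises and 1052 to 1659 falls. Of the 251 genes named by rule, those that differed from RPMI/B27 at Day 30 numbered 37 in RPMI_glcM/B27 and 45 in HPLM/B27 on the TPM as deposited, and 69 to 89 and 90 to 111 with 1 library left out. On the TPM as deposited the log2 fold changes of CACNA1C and RBM20, called higher above, were −0.0365 and −0.0241. The cause of these shifts was not tested. For the 195 genes of the text, 3027 of 3298 recomputed values kept their direction and their side of the threshold, 215 kept the direction and lost the call, and 23 gained one. The calls of AURKA, AXIN2, BIRC5, BUB1, CACNA1C, CCNB2, COL1A2, FDXR, FH, HK2, ID3, JPH1, JUND, KCNQ1, LUM, MCAM, MKI67, NKX2-5, PFKFB3, PGAM1, RBM20, SLC2A1, SQLE, TMEM38A, TPX2 and WT1 were each lost with at least 1 library left out. For the paired shares leaving a library out decides nothing, since 3 libraries against 4 cannot reach p under 0.05. Nor can leaving out 1 library of 4 move a group mean by 1 SD. The labels give the replicate numbers no shared batch or day, and the deviations of same-numbered libraries correlated at −0.07, 0.58, 0.37 and 0.38, so that not every pair was over 0.1 and the numbers were not used as pairs. Of the 8 libraries, 4 correlated best with their own number, a hint from the data and not from the design. With the replicate block 3029 genes were called, 1527 higher and 1502 lower. At these depths 1902 of the genes tested had a mean under 10 reads, and their changes rest on few reads.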

Other observations

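Glycogen genes moved both ways between Day 16 and Day 30, with 5 of 16 higher and 4 lower, or 2 lower without replicate 3 of Day 16 or replicate 1 or 4 of Day 30, and 1 higher on the TPM as deposited. PPP1R3A and PPP1R3C, which target the phosphatase that activates glycogen synthesis, rose from 50.7 ± 3.17 to 111 ± 14.8 and from 25.5 ± 3.52 to 42.1 ± 4.41 rescaled TPM, and PYGM, the muscle glycogen phosphorylase, fell from 24.9 ± 6.24 to 15.3 ± 0.789. Of 9 creatine and energy buffering genes, MB, myoglobin, rose by 0.63 and CKMT2, the mitochondrial creatine kinase of muscle, by 1.03 on the log2 scale, and CKB fell, with 3 falls without replicate 3 of Day 30. Among 11 atrophy genes 3 rose, or 7 without replicate 3 of Day 30, and 1 fell, led by TRIM63, the muscle ubiquitin ligase MURF1, at 72.6 ± 4.85 and then 161 ± 27.8. Of 15 splicing regulators 4 rose, or 1 without replicate 1 of Day 16 and none on the TPM as deposited, RBM20, which sets titin splicing, by 0.31, and 3 fell, PTBP1, the repressor of muscle exons, by 0.47 on the log2 scale. Among 11 genes of the glucose-responsive factors MondoA and ChREBP 2 rose and 2 fell, or 1 fell without replicate 3 of Day 16 or replicate 4 of Day 30, with G0S2, an inhibitor of fat breakdown, at 10.96 ± 4.42 and then 41.2 ± 12.9. Of 25 lysosome and autophagy genes 2 were higher and 4 lower, of 20 oxidative stress genes 2 were higher and 2 lower, and of 42 replication-dependent histone genes 1 was higher and 1 lower, beside 17.4% called in either direction among all genes tested. With 1 library left out the rises and falls of these 3 lists ran from 1 to 2 and 2 to 3, from 1 to 2 and 0 to 2, and from 1 to 2 and 0 to 2, and on the TPM as deposited none rose and 7, 6 and 12 fell.

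Among the genes with the smallest adjusted p, C7, a complement component, rose from 25.9 ± 1.499 to 67.6 ± 6.47 rescaled TPM, NFIB, a transcription factor of differentiating cells, from 11.1 ± 0.676 to 23.7 ± 1.599, and SPOCK1, a secreted proteoglycan, from 6.21 ± 0.370 to 28.5 ± 2.06. HS6ST2, a heparan sulfate sulfotransferase, fell from 14.3 ± 0.912 to 4.65 ± 0.617. Lack of overlap between the groups was a condition of this choice.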
